A study of Drosophila melanogaster with 10 samples.

Results

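Drosomycin (Drs), Metchnikowin (Mtk), Defensin (Def) and 7 genes of immune-induced molecules (IM1, IM2, IM3, IM4, IM10, IM14 and IM23) were followed in the ventral nerve cord (VNC, the fly counterpart of the spinal cord) after nerve injury. They were chosen by name, with earlier results of these data known, as 10 of the 14352 genes of the count table. All 10 were measured well enough to be tested, IM23 only through its injured libraries. The VNCs came from w1118 adults, a white-eyed laboratory strain, of both sexes and 3 to 10 days old by the sample labels (the RNA-seq methods give a narrower age for the injured flies), and each library was a pool of flies. For the 5 injured libraries, the 6 legs, both wings and the head were cut off and the VNC was dissected 5 hr later. The 5 uninjured libraries came from intact flies held without food in agar vials for 5 hr, while the injured flies lay on a humid agar plate, so effects of housing, of losing these parts and of nerve injury cannot be told apart.

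These genes encode small secreted peptides of fly innate immunity. The fat body and hemocytes release such peptides into the hemolymph when the Toll or Imd pathway is activated by fungi or bacteria, and glia and other tissues can make them locally. In the Toll pathway, recognition proteins and a protease cascade cleave the ligand Spätzle, the receptor Toll is bound, the inhibitor Cactus is degraded, and the NF-κB factors Dorsal and Dif enter the nucleus. The Imd pathway runs from peptidoglycan recognition proteins to a different NF-κB factor, Relish. Drs, an antifungal peptide, and the IM genes are classical readouts of Toll, Mtk answers to both pathways and Def mostly to Imd with a part for Toll. The IM peptides were first seen as mass peaks in the hemolymph of infected flies. They are now grouped as short Bomanins (IM1, IM2 and IM3), a bicipital Bomanin (IM23), the Daisho peptides (IM4 and IM14) and a Baramicin (IM10).

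The libraries held 5146470 to 6625705 gene counts after injury and 5763891 to 6640492 without injury. Exons took 37.2% to 43.1% of reads in injured and 41.3% to 43.4% in uninjured libraries. Of the 9365 genes tested, 670 were higher after injury (7.15%) and 619 lower (6.61%) at an adjusted p under 0.01 in edgeR's quasi-likelihood test, which is the rule for calls of single genes below, while ratios of 2 genes are called at an adjusted p under 0.05 in an exact permutation test. Of the markers of nervous tissue, all 12 neuronal and 10 of 11 glial genes passed the filter of 2 TPM. Levels between genes are given only as the authors' TPM, which divides reads by the length of the longest transcript, and fold changes come from counts. As the samples are bulk tissue, more cells of a type and more RNA per cell cannot be told apart. No deposited count was below 1, so a 1 may stand for no read.

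All 10 genes were higher after injury, against 7.15% of all genes tested, and in all 10 every injured library lay above every uninjured library, which held for 8.06% of all genes tested. As the genes were chosen with earlier results of these data known, both shares are given for scale only. Fold changes of the 10 genes ran from 4.37 for Def to 40.7 for Mtk, with a median log2 fold change of 2.94, beside -0.01 over all genes tested. 4 of them, Mtk, IM23, IM1 and Drs, were at least 8-fold higher, as were 0.438% of all genes tested. Together they held 0.151, 0.130, 0.0823, 0.108 and 0.0820% of all gene counts in injured libraries 1 to 5, against 0.00774, 0.01, 0.0147, 0.0154 and 0.0101% in uninjured libraries 1 to 5. The mean share was 9.54 times as large after injury.

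**Figure D1:**
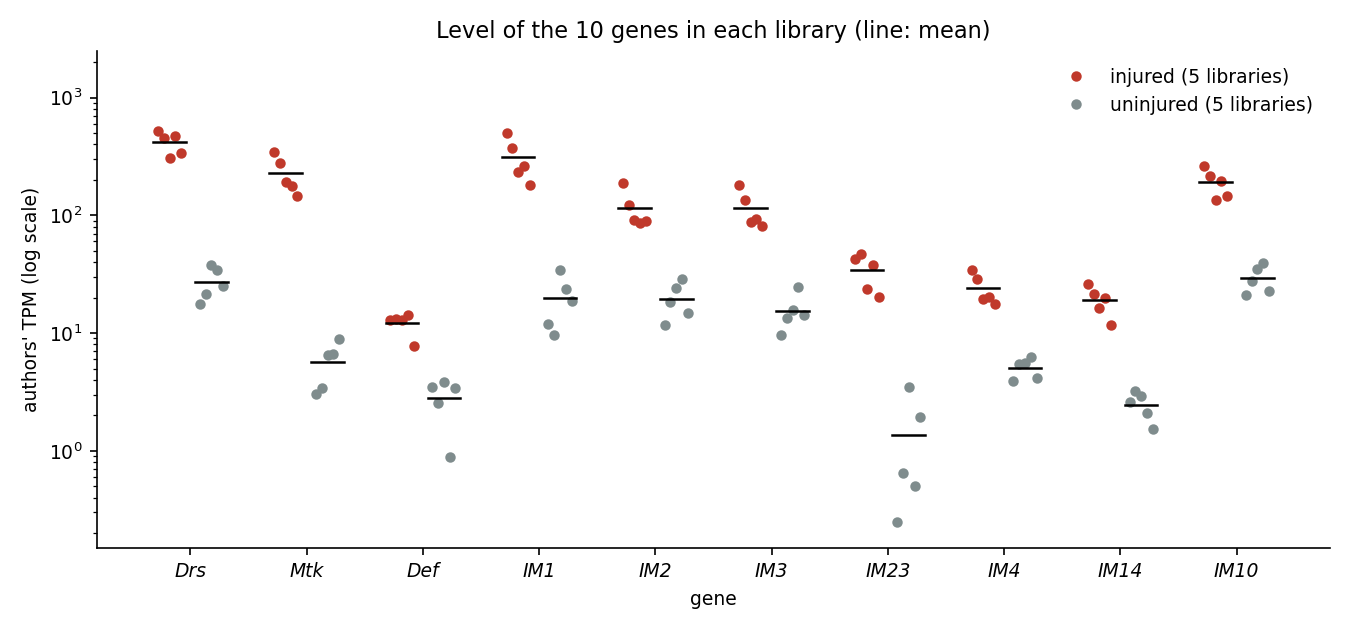
Level of each of the 10 genes in every library, as the authors' TPM on a log axis, with injured libraries left of uninjured ones, points in library order from 1 to 5 and a line at the mean of 5 libraries. The groups do not overlap for any of the 10 genes, and Drs (mean 418 TPM) is the highest and Def (mean 12.2 TPM) the lowest after injury.

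Of the 3 antimicrobial peptides, Drs reached the highest level. It stood at 521, 450, 306, 474 and 337 TPM in injured libraries 1 to 5, against 17.8, 21.3, 37.6, 34.1 and 25.3 TPM in uninjured libraries 1 to 5. The lowest injured library was thus far above the highest uninjured one. The log2 fold change was 3.98 (SE 0.20, adjusted p = 2.6e-08), or 15.8-fold. Mtk, a proline-rich peptide active against fungi and some bacteria, had 345, 281, 191, 178 and 146 TPM in injured libraries 1 to 5, against 3.04, 3.42, 6.48, 6.60 and 8.94 TPM in uninjured libraries 1 to 5. Its fold change was the largest of the 10, and uninjured library 5, its highest without injury, held 21 counts. Mtk rose 40.7-fold (log2 fold change 5.35, SE 0.29, adjusted p = 4e-08).

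Def, a cysteine-rich peptide active mainly against Gram-positive bacteria, changed least. Its levels were 12.8, 13.2, 12.9, 14.3 and 7.76 TPM in injured libraries 1 to 5, against 3.50, 2.56, 3.81, 0.886 and 3.43 TPM in uninjured libraries 1 to 5. Injured library 5 was the lowest of its group and uninjured library 4 the lowest of the other, on 30 and 3 counts. The log2 fold change was 2.13 (SE 0.29, adjusted p = 0.000143), or 4.37-fold.

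Among the short Bomanins, peptides needed for Toll-dependent defence, IM1 was the highest after injury. It had 502, 374, 232, 263 and 180 TPM in injured libraries 1 to 5, against 11.9, 9.60, 34.6, 23.8 and 18.6 TPM in uninjured libraries 1 to 5. Its levels differed among uninjured libraries by more than those of Drs, with a coefficient of variation (SD over mean) of 50.8% for IM1 and 30.8% for Drs. IM1 rose 16.0-fold (log2 fold change 4.00, SE 0.33, adjusted p = 1.69e-06). IM2 had 188, 123, 91.5, 86.8 and 89.8 TPM in injured libraries 1 to 5, against 11.7, 18.3, 24.2, 28.6 and 14.9 TPM in uninjured libraries 1 to 5. Injured library 1 was the highest and the other injured libraries lay closer together. IM2 rose 6.05-fold (log2 fold change 2.60, SE 0.24, adjusted p = 4.79e-06). IM3 had 180, 135, 88.0, 93.6 and 81.9 TPM in injured libraries 1 to 5, against 9.55, 13.4, 15.7, 24.4 and 14.2 TPM in uninjured libraries 1 to 5. IM3 thus stood close to IM2 in the injured libraries, with uninjured library 4 the highest of its group, and rose 7.68-fold (log2 fold change 2.94, SE 0.24, adjusted p = 1.57e-06).

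IM23, the bicipital Bomanin of the set, was the lowest of the 10 without injury. It had 42.5, 47.3, 23.9, 37.6 and 20.3 TPM in injured libraries 1 to 5, against 0.249, 0.654, 3.48, 0.504 and 1.95 TPM in uninjured libraries 1 to 5. These rest on 92 to 190 counts per injured library and 1 to 15 counts per uninjured library, and the uninjured coefficient of variation of 98.8% was the highest of the 10. With an uninjured mean of 1.37 TPM, IM23 passed the filter of 2 TPM only through its injured libraries, and it stayed higher without that filter. The log2 fold change was 4.64 (SE 0.42, adjusted p = 4.05e-06), with 4.40 to 5.35 when any 1 library was left out.

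The Daisho peptides IM4 and IM14, which act in defence against certain filamentous fungi, were among the lower genes after injury. IM4 had 34.6, 28.7, 19.6, 20.3 and 17.6 TPM in injured libraries 1 to 5, against 3.95, 5.45, 5.52, 6.30 and 4.16 TPM in uninjured libraries 1 to 5. The uninjured libraries differed little, with a coefficient of variation of 19.5%. IM4 rose 4.87-fold (log2 fold change 2.28, SE 0.19, adjusted p = 1.51e-06). IM14 had 26.3, 21.4, 16.4, 19.7 and 11.6 TPM in injured libraries 1 to 5, against 2.61, 3.20, 2.92, 2.11 and 1.53 TPM in uninjured libraries 1 to 5. It was low in both groups in counts, with 25 to 56 per injured and 3 to 7 per uninjured library, and did not overlap. Its log2 fold change was 2.94 (SE 0.26, adjusted p = 3.22e-06), or 7.68-fold.

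IM10, a peptide cut from the Baramicin precursor, was the highest of the 10 without injury by mean level. It had 265, 217, 136, 195 and 146 TPM in injured libraries 1 to 5, against 21.0, 27.5, 35.2, 39.7 and 22.8 TPM in uninjured libraries 1 to 5. IM10 rose 6.75-fold (log2 fold change 2.76, SE 0.20, adjusted p = 5.22e-07). A second Baramicin gene, BaraA1 (CG33470), is a near-identical copy, and the IM10 count was 96.2% to 103% of the BaraA1 count in injured and 102% to 127% in uninjured libraries, so reads may have been shared between them and the value of either gene alone is uncertain. BaraA1 itself rose 7.19-fold (adjusted p = 5.16e-07).

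**Figure D2:**
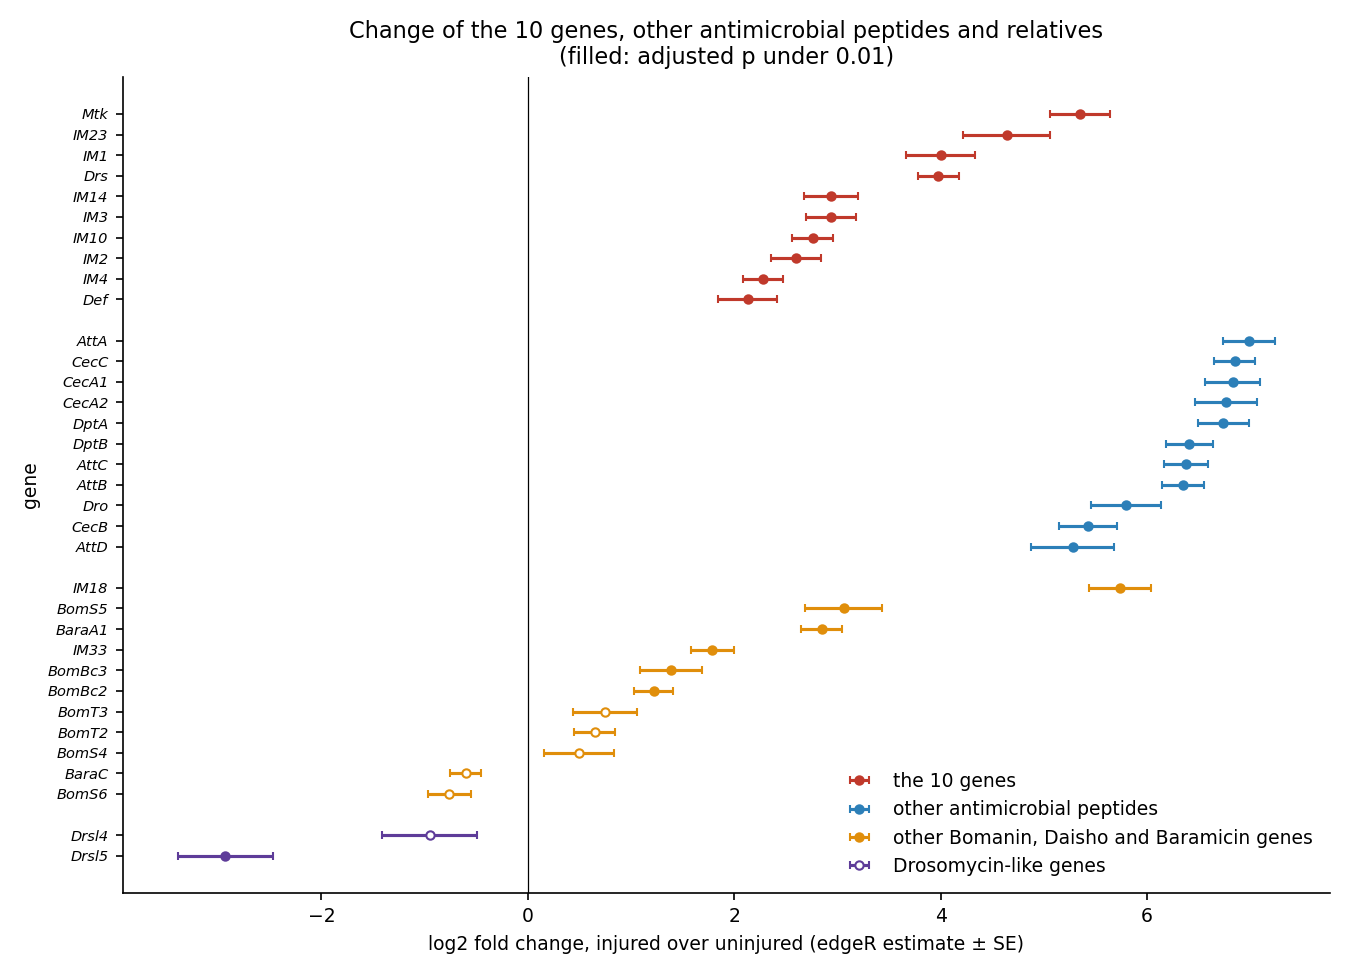
Log2 fold change of injured over uninjured libraries from edgeR, with SE bars, for the 10 genes, 11 other antimicrobial peptides and the tested relatives of the 10 genes, where filled points passed an adjusted p under 0.01. The 10 genes lie between 2.13 and 5.35, the other antimicrobial peptides between 5.28 and 6.99, and the relatives on both sides of 0.

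The order of the levels differed between the groups. After injury it ran Drs (418 ± 91.9 TPM, SD, n = 5), IM1 (310 ± 129), Mtk (228 ± 82.0), IM10 (192 ± 52.8), IM2 (116 ± 43.0), IM3 (116 ± 41.7), IM23 (34.3 ± 11.7), IM4 (24.2 ± 7.21), IM14 (19.1 ± 5.50) and Def (12.2 ± 2.56). Without injury IM10 (29.2 ± 8.02) led Drs (27.2 ± 8.39), IM1 (19.7 ± 10.0), IM2 (19.6 ± 6.84), IM3 (15.4 ± 5.48), Mtk (5.70 ± 2.46), IM4 (5.08 ± 0.991), Def (2.84 ± 1.19), IM14 (2.48 ± 0.663) and IM23 (1.37 ± 1.35). Among neighbours in these orders, the gap was larger than the larger SD after injury for IM10 over IM2, IM3 over IM23 and IM14 over Def, and without injury for IM3 over Mtk and IM4 over Def. For the other neighbours the gap did not exceed the larger SD. Within single libraries, Drs was above IM1, IM1 above Mtk, IM23 above IM4 and IM4 above IM14 in 5 of 5 injured libraries, while Mtk was above IM10 and IM2 above IM3 in 3 of 5. Without injury Drs was above IM1 and IM2 above IM3 in 5 of 5 libraries, and IM10 over Drs, IM1 over IM2, Mtk over IM4, Def over IM14 and IM14 over IM23 held in 3 of 5. Mtk made up a mean of 15.4% of the summed TPM of the 10 genes after injury and 4.46% without injury, while IM10 made up 13.1% after injury and 23% without injury. Drs held 29.1% after injury and 21.1% without injury.

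To ask whether the genes rose by different amounts, the count ratio of each pair was compared between the groups, a measure that does not depend on library size. Of 45 pairs, 30 differed at an adjusted p under 0.05 in a 2-sided exact permutation test, and in 25 pairs the ratios of injured and uninjured libraries did not overlap. The smallest p the design allows is 0.00794, which is 0.0143 after adjustment over the 45 pairs. Mtk rose more than Drs, with a difference in log2 ratio of Drs to Mtk of -1.35 (1.44 ± 0.37 in injured, 2.80 ± 0.45 in uninjured libraries, SD, n = 5, adjusted p = 0.0143, exact permutation test). Mtk also rose more than each of Def, IM1, IM2, IM3, IM4, IM14 and IM10, by 1.29 to 3.15 on the log2 scale (adjusted p = 0.0143 each, exact permutation test). Drs and IM1 each rose more than IM2, IM3, IM4, IM14, IM10 and Def, by 1.06 to 1.85 (adjusted p = 0.0143 to 0.0476, exact permutation test). The Drs to IM1 ratio changed by -0.06 (0.59 ± 0.37 in injured, 0.66 ± 0.37 in uninjured libraries, adjusted p = 0.82, exact permutation test).

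Differences were smaller among the genes with the lesser rises, Def, IM2, IM3, IM4, IM14 and IM10, the largest being -0.73 for Def against IM3. Within the short Bomanins, IM1 rose more than IM2 by 1.46 (adjusted p = 0.0143) and more than IM3 by 1.12 (adjusted p = 0.0255), and IM3 more than IM2 by 0.34 (adjusted p = 0.0255), all in the exact permutation test. The Daisho genes differed too, with IM14 rising more than IM4 by 0.60 (adjusted p = 0.0255, exact permutation test), a difference that rests on 3 to 7 uninjured counts of IM14. For Def, 5 of its 9 pairs were not called, those with IM2, IM3, IM4, IM14 and IM10, and the SD of these 5 ratios in uninjured libraries was 0.83 to 1.22. For Mtk and IM23 the change in ratio was 0.36 (1.93 ± 0.33 in injured, 1.56 ± 0.99 in uninjured libraries, adjusted p = 0.589, exact permutation test), so the 2 genes with the largest rises were not ordered beyond their spread.

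**Figure D3:**
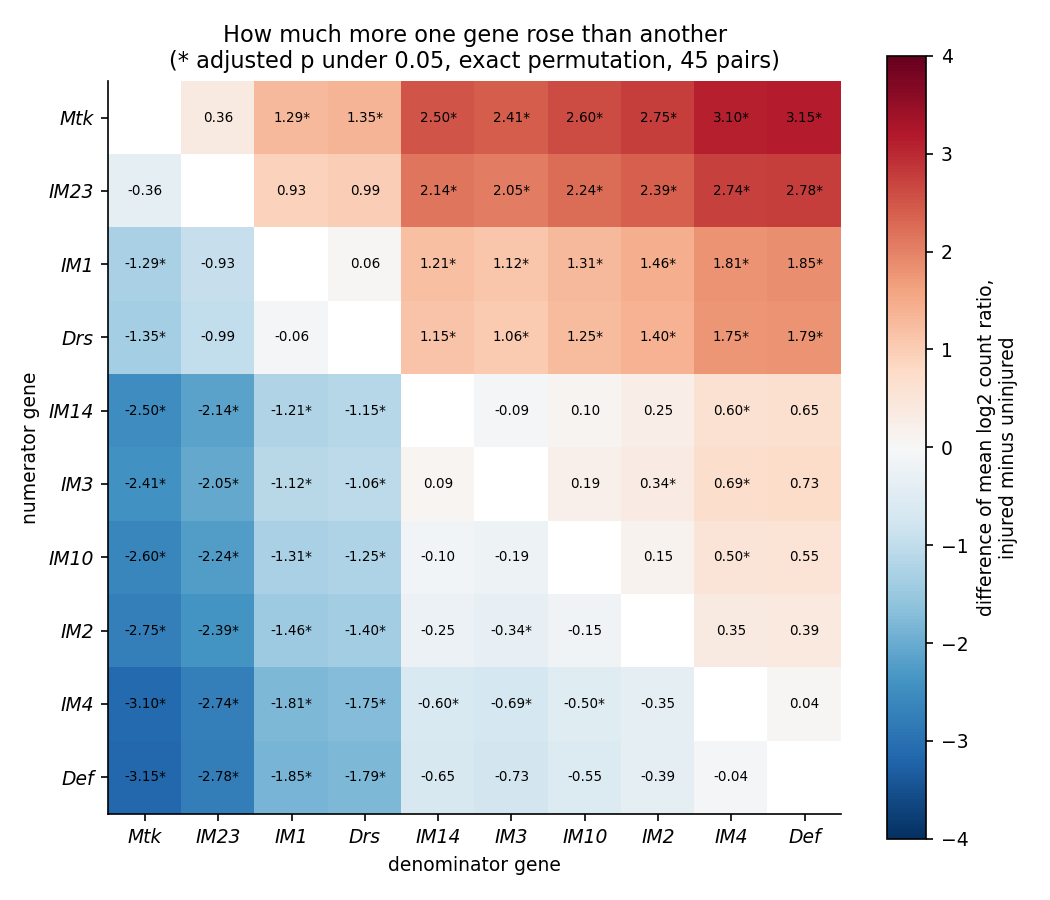
Difference between injured and uninjured libraries in the mean log2 count ratio of the gene in the row over the gene in the column, ordered by fold change, with a star where the adjusted p of the exact permutation test over 45 pairs was under 0.05. Mtk, IM23, IM1 and Drs carry positive differences against the other 6 genes, all of them starred.

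The 10 genes shared the order of libraries in part. Injured library 1 was the highest of its group for 7 of the 10 genes and injured library 5 the lowest for 7, in normalized counts. Without injury, library 1 was the lowest for 7 of the 10 genes. The highest uninjured library was divided, with library 3 for 4 genes, library 4 for 4 and libraries 2 and 5 for 1 each. Summed TPM of the 10 genes was 2117, 1691, 1117, 1383 and 1039 in injured libraries 1 to 5, a 2.04-fold range, against 85.3, 105, 169, 167 and 116 in uninjured libraries 1 to 5, a 1.98-fold range. The ratios between genes varied less among injured libraries, with a median SD over the 45 pairs of 0.26 on the log2 scale after injury and 0.62 without injury, where counts were lower. The tightest pair after injury was IM3 and IM4, with a log2 ratio of 2.24 ± 0.08 in injured libraries and 1.55 ± 0.30 in uninjured libraries.

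By the root-mean-square distance of gene-centred log2(TPM + 0.5) profiles over the 10 libraries, CG16772 was nearest to IM10 (0.0954) and to IM2 (0.202) and IM14 (0.294), and second to IM3 (0.250). BaraA1 was nearest to IM3 (0.187). Spn28Dc, a serpin, was nearest to Drs (0.359) and IM1 (0.544), followed by PGRP-SB1 for Drs (0.452) and the matrix metalloproteinase gene Mmp1 for IM1 (0.582). Mtk was nearest to IM18 (0.448), IM23 to Dro (0.699) and CecB (0.728), both antibacterial peptide genes, and Def to CG31955 (0.427) and Socs36E (0.439), an inhibitor of JAK/STAT signaling. IM4 was nearest to CG13335 (0.204) and the gene of beta-Tubulin at 60D (0.209), and CG13335 was second for IM14 (0.323). These distances describe the same libraries that show the rise and were not tested.

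The Bomanin genes IM1, IM2, IM3 and IM23 lie side by side with others in the Release 6 annotation, on chromosome arm 2R. The order is BomT1, IM23, IM1, BomS4, BomBc2, IM2, IM3, BomT2, BomS5 and BomS6. BomT1 could not be matched to the count table and was not measured here. Of the 9 measured neighbouring genes, 6 rose and 3 were not called, beside 7.15% of all genes tested that rose. The 6 include the 4 genes already described, and of the 5 other measured genes only BomS5 and BomBc2 rose. BomS5, a short Bomanin, had 90.7, 73.3, 37.5, 54.9 and 34.6 TPM in injured libraries 1 to 5, against 1.60, 4.68, 11.9, 9.19 and 7.85 TPM in uninjured libraries 1 to 5. It rose 8.36-fold (log2 fold change 3.06, SE 0.37, adjusted p = 4.78e-05), without overlap between the groups. BomBc2 rose 2.32-fold (adjusted p = 0.000382).

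The short Bomanin BomS4, next to IM1, was different. It had 14.1, 8.51, 3.06, 7.04 and 6.98 TPM in injured libraries 1 to 5, against 5.39, 7.98, 7.33, 4.19 and 3.65 TPM in uninjured libraries 1 to 5, so the groups overlapped (log2 fold change 0.50, SE 0.34, adjusted p = 0.318). BomS6 had 25.9, 22.9, 13.0, 11.7 and 14.1 TPM in injured libraries 1 to 5, against 28.8, 37.1, 24.7, 30.4 and 31.1 TPM in uninjured libraries 1 to 5. Injured libraries 2 to 5 lay below every uninjured library in TPM, and in CPM all 5 did (3.69 to 7.21 in injured, 7.36 to 10.8 in uninjured libraries), but the gene was not called (log2 fold change -0.76, SE 0.21, adjusted p = 0.0181). It passed 0.01 without injured library 1 (adjusted p = 0.00638) and with DESeq2 (adjusted p = 0.00659). BomT2 was not called either (log2 fold change 0.65, SE 0.20, adjusted p = 0.0349) but passed without injured library 3 (adjusted p = 0.00565). Of the 6 short Bomanins measured, 4 rose, namely IM1, IM2, IM3 and BomS5.

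Count ratios of IM1, IM2, IM3 and IM23 to the 5 other measured genes of this locus, and of Drs to 2 of its relatives, were compared after these values had been seen, which gave 22 pairs. 19 of them differed (adjusted p = 0.00919 each, exact permutation test) and did not overlap. Pairs with BomS6 or Drsl5 had to differ. By CPM that gene was lower, and its partner higher, in every injured library than in any uninjured one. The p-values of such pairs add no evidence to the values of the single genes. The other pairs were also chosen after the separation of IM1, IM2, IM3, IM23 and Drs had been seen. Their p-values are therefore given as description only. IM1 rose more than BomS4 by 3.65 and more than BomS6 by 4.87 on the log2 scale. IM2, with the smallest rise of the 4, still rose more than BomS4 by 2.19 and more than BomS6 by 3.41. The 3 pairs that were not called were those of BomS5 with IM1 (0.86, adjusted p = 0.0524), IM2 (-0.60, adjusted p = 0.141) and IM3 (-0.26, adjusted p = 0.524), in the exact permutation test. BomS4 and BomBc2 overlap in the Release 6 annotation on opposite strands and whether strand was used in counting is not given in the sources used here, so their reads may not be separable.

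**Figure D4:**
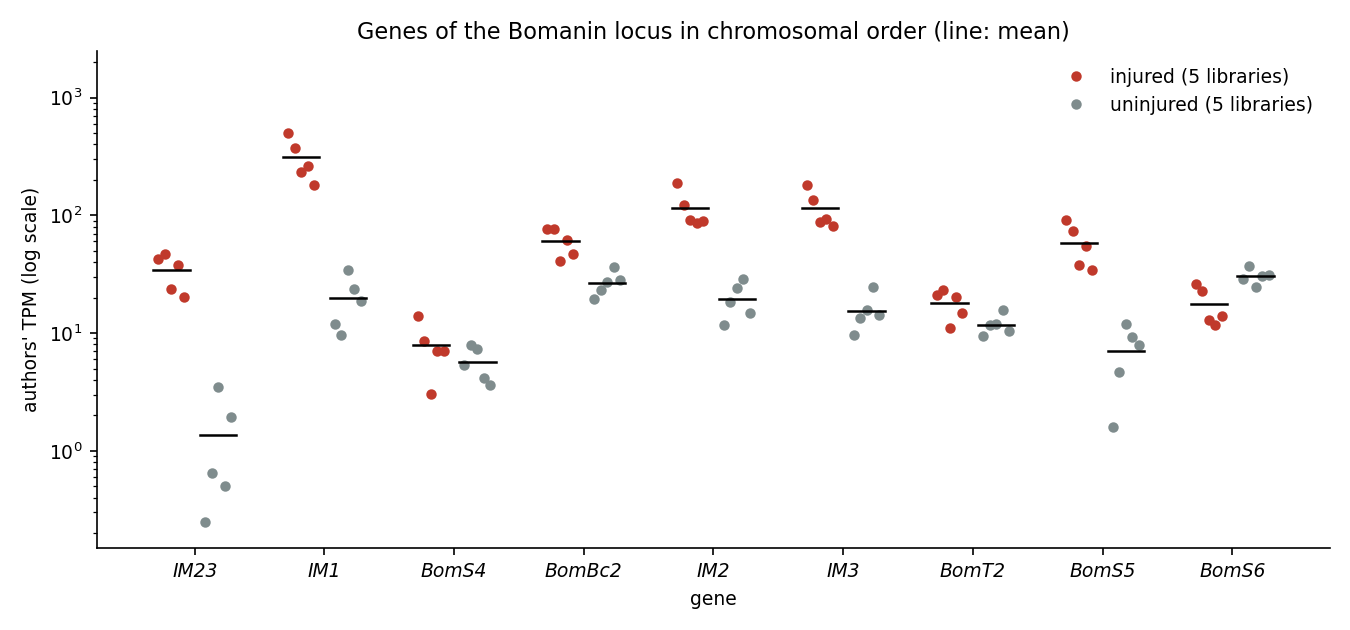
Level of the 9 measured neighbouring Bomanin genes in every library, in chromosomal order, as the authors' TPM on a log axis, with injured libraries left of uninjured ones, points in library order from 1 to 5 and a line at the mean. IM23, IM1, BomBc2, IM2, IM3 and BomS5 are separated between the groups, whereas the TPM values of BomS4, BomT2 and BomS6 overlap.

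The other genes of these families moved in different directions. IM18 rose 53.3-fold, on 111 to 195 counts per injured and 1 to 6 counts per uninjured library (adjusted p = 2.91e-08), but its counts equal those of the overlapping gene CG10332 in all 10 libraries, so the reads cannot be assigned to either. IM33 rose 3.45-fold (adjusted p = 3.73e-05). BomBc3 rose 2.62-fold (adjusted p = 0.00455), a call lost with limma-voom (adjusted p = 0.0153), with limma on log2(TPM + 0.5) (0.0171) or log2(TPM + 1) (0.0173) and on leaving out any 1 of uninjured libraries 1, 3 and 5 or of injured libraries 1, 2 and 4 (0.0108 to 0.0141). BomT3 was not called (log2 fold change 0.75, SE 0.31, adjusted p = 0.104). BaraC, a Baramicin expressed in the nervous system, had 40.2, 18.8, 28.4, 20.4 and 26.9 TPM in injured libraries 1 to 5, against 41.1, 42.9, 46.6, 39.3 and 39.5 TPM in uninjured libraries 1 to 5. Injured library 1 reached the level of the uninjured libraries and the other 4 lay below them all, but the gene was not called (log2 fold change -0.60, SE 0.15, adjusted p = 0.0112). That value passed 0.01 without injured library 1 (log2 fold change -0.74, adjusted p = 0.000901), with DESeq2 (0.00156), with limma-voom (0.00809) and with the column number as a block (0.00893). BaraB was at 1 or 2 counts and was not tested. Over the 11 of 12 such relatives that were tested, 6 rose and 5 were not called, with a median log2 fold change of 1.22. Of all genes tested, 7.15% rose.

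Of the 6 Drosomycin-like genes, which encode close relatives of Drs, 2 could be tested and 0 were called higher by edgeR, DESeq2 or limma-voom (0 at an unadjusted p under 0.05). Drsl1, Drsl2, Drsl3 and Drsl6 were below 2 TPM in both groups and not tested. Drsl5 had 0.862, 1.38, 0.887, 2.11 and 1.42 TPM in injured libraries 1 to 5, against 7.36, 12.3, 14.3, 17.2 and 2.82 TPM in uninjured libraries 1 to 5. Every injured library was below every uninjured one, which held for 8.45% of all genes tested, and Drsl5 fell (log2 fold change -2.93, SE 0.46, adjusted p = 0.000459). Drsl4 had 25.9, 14.4, 10.3, 6.80 and 2.88 TPM in injured libraries 1 to 5, against 12.3, 35.4, 30.2, 31.0 and 9.53 TPM in uninjured libraries 1 to 5. These groups overlapped (log2 fold change -0.95, SE 0.46, adjusted p = 0.157). The ratio of Drs to Drsl5 was higher after injury by 6.67 and that of Drs to Drsl4 by 5.08 on the log2 scale (adjusted p = 0.00919 each, exact permutation test). These ratios were chosen after the values were seen, so their p-values are given as description only. The result for Drs to Drsl5 was fixed by the separation of both genes between the groups and adds no evidence.

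The other antimicrobial peptides, the attacins, cecropins, diptericins and drosocin, which are mostly readouts of the Imd pathway, rose in all 11 cases. Of all genes tested, 7.15% rose. AttA, AttD, CecA1, CecA2, CecB, CecC and Dro had uninjured means of 0.315 to 0.87 TPM. They passed the filter of 2 TPM only through the injured libraries, so they could be tested only because they were high there. AttB lay at the filter without injury (mean 2 TPM). The median log2 fold change of the 11 genes was 6.41. It was 6.38 when CecA2, listed at 1 count in every uninjured library, was taken at a lower bound of 40.6-fold, set against 3 counts per library. AttA had 759, 530, 452, 725 and 492 counts in injured libraries 1 to 5, against 7, 2, 4, 4 and 6 counts in uninjured libraries 1 to 5 (log2 fold change 6.99, SE 0.25, adjusted p = 1.65e-09), and may share reads with AttB. CecC had 123 to 207 counts in injured and 1 to 2 in uninjured libraries (adjusted p = 8.78e-10). The summed TPM of these 11 genes was 73.2% to 115% of that of the 10 genes described here after injury and 6.02% to 20.5% without injury.

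Genes listed under the Toll and Imd pathways changed in part. In the Toll list, 22 genes were tested, of which 12 were higher, 1 was lower and 9 were not called. Over all genes tested, 7.15% were higher and 6.61% lower. The median log2 fold change of the list was 0.66. Hayan and spirit, with uninjured means of 0.719 and 0.688 TPM, passed the filter of 2 TPM only through the injured libraries. PGRP-SA, which recognizes Lys-type peptidoglycan, rose (log2 fold change 4.37, SE 0.18, adjusted p = 3.38e-09) as did Hayan, a serine protease of the cascade (log2 fold change 2.83, SE 0.24, adjusted p = 2.02e-06). Toll-7, a Toll-family receptor, had the most reads of the genes not called, as CPM without regard to length (log2 fold change 0.19, SE 0.06, adjusted p = 0.0386). The gene that fell, GNBP3, which recognizes fungal glucans, is named because it was the only one (log2 fold change -1.03, SE 0.23, adjusted p = 0.00686), a call lost without the TPM filter and on leaving out any 1 of uninjured libraries 2 to 5 or of injured libraries 1, 2 and 4. Of the pathway factors introduced above, spz rose 3.78-fold, Tl 1.22-fold, cact 2.5-fold, dl 4.2-fold and Dif 2.03-fold, all called. Of 24 tested genes of the Imd pathway, 6 rose, beside 7.15% of all genes tested, and 18 were not called, with a median of 0.24. Of these, pirk, with an uninjured mean of 0.979 TPM, passed the filter of 2 TPM only through the injured libraries. Rel, the gene of Relish, was among those that rose (8.52-fold). PGRP-SB1, a peptidoglycan-cleaving protein, rose (log2 fold change 4.26, SE 0.25, adjusted p = 9.65e-08) as did pirk, an inhibitor of the pathway (log2 fold change 3.50, SE 0.21, adjusted p = 1.1e-07), whereas eff, a ubiquitin-conjugating enzyme, was not called (log2 fold change -0.12, SE 0.06, adjusted p = 0.168).

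The fat body, known to make these peptides, was followed by 15 markers that did not move together. Their median log2 fold change was 0.19, with 8 above 0 and 7 below. Summed TPM of 15 fat body markers was 1366, 1516, 1291, 1050 and 1204 in injured libraries 1 to 5, against 1757, 3055, 2407, 3352 and 1439 in uninjured libraries 1 to 5, and none of the 15 was at 1 count in all libraries. Only the lowest uninjured library, library 5, overlapped with the injured ones. Of the 15, Yp3, a yolk protein, fell (log2 fold change -1.61, SE 0.36, adjusted p = 0.00567), as did apolpp (log2 fold change -0.89, SE 0.15, adjusted p = 0.00073). For apolpp every injured library lay below every uninjured one in CPM, which held for 8.45% of all genes tested. Ilp6, an insulin-like peptide, rose (log2 fold change 0.98, SE 0.20, adjusted p = 0.00289) and 12 were not called. Thus 1 of the 15 rose and 2 fell, beside 7.15% and 6.61% of all genes tested. FASN1, a fatty acid synthase and one of these 12, had a log2 fold change of -0.14 (adjusted p = 0.29). Of the other yolk protein genes, Yp1 and Yp2 were not called (log2 fold changes -0.92 and -1.29). Without Yp1, Yp2 and Yp3, left out after the values were seen, the sum was 493, 315, 312, 373 and 931 TPM in injured libraries 1 to 5, against 436, 507, 450, 484 and 544 TPM in uninjured libraries 1 to 5, so the groups overlapped, and injured library 5, the lowest of its group in summed TPM of the 10 peptide genes, was the highest here. The log2 fold changes of Lsp1alpha (2.33), Fbp2 (2.22), Fbp1 (2.17), Lsp1gamma (1.53) and Lsp1beta (1.41), genes of larval storage proteins and the fat body, were not called, with SEs of 0.91 to 1.25. Fbp1, a larval serum protein receptor, ran from 8 to 8006 counts over the injured libraries and from 10 to 1670 over the uninjured ones. The Yp3 call was lost without the TPM filter, with limma on log2(TPM + 0.5) or log2(TPM + 1), and on leaving out any 1 of uninjured libraries 2, 3 and 4 or of injured libraries 1 and 4, and the Ilp6 call was lost with limma-voom and with the column number as a block. The part of such fat body RNA in the level of the peptides was not tested.

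Hemocyte markers, summed over 12 genes, stood at 149, 123, 111, 111 and 100 TPM in injured libraries 1 to 5, against 147, 195, 154, 225 and 135 TPM in uninjured libraries 1 to 5. Their median log2 fold change was -0.83. Of the 10 tested, 0 rose in edgeR's test (0 at an unadjusted p under 0.05 and 0 with DESeq2 or limma-voom) and 4 fell, among them Sr-CI, a scavenger receptor (log2 fold change -1.93, SE 0.30, adjusted p = 0.000411) and NimC1, a phagocytosis receptor (log2 fold change -1.78, SE 0.27, adjusted p = 0.000311), while Pxn, a peroxidasin, was not called (log2 fold change -0.17, SE 0.05, adjusted p = 0.0172). The 4 that fell stand beside 6.61% of all genes tested. The count of 4 was 2 without uninjured library 2 or without injured library 3, 4 or 5. Like the 10 genes, the hemocyte sum was highest in library 1 and lowest in library 5 of the injured group, and its part in that order was not tested. The sums of the Toll list, the Imd list and the other Bomanin, Daisho and Baramicin genes had the same highest and lowest injured library. Without injury the hemocyte sum was highest in library 4 and lowest in library 5. The sum of the 10 genes was then highest in library 3 and lowest in library 1.

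Of 10 tested glial markers, 2 rose and 4 fell, beside 7.15% and 6.61% of all genes tested, with a median log2 fold change of -0.36. drpr, the engulfment receptor gene of glia, rose (log2 fold change 1.13, SE 0.04, adjusted p = 2.03e-09) and Tret1-1, a trehalose transporter, fell (log2 fold change -1.31, SE 0.07, adjusted p = 2.86e-08), while nrv2, a sodium pump subunit, was not called (log2 fold change -0.36, SE 0.16, adjusted p = 0.122). With edgeR no neuronal, muscle or tracheal marker was called of 12, 10 and 2 tested, nor with DESeq2 or limma-voom, while 2 neuronal, 3 muscle and 0 tracheal markers had an unadjusted p under 0.05. The lists' median log2 fold changes were 0.10, 0.82 and -0.17. By CPM the neuronal gene futsch and the tracheal gene trh led their lists, with log2 fold changes of 0.01 and -0.07. Among the muscle genes the log2 fold change was -0.02 for sls, which led by mean CPM over the 10 libraries, 0.94 for Mlc2, 1.09 for Mhc and 2.09 for Act88F, none of them called. Summed muscle marker TPM was uneven after injury, at 422, 632, 111, 1256 and 608 in injured libraries 1 to 5, against 265 to 380 in uninjured libraries. Its highest library, injured library 4, was the highest of its group for 2 of the 10 peptide genes, and 4 muscle markers rose when its lowest, injured library 3, was left out. Without injured library 1, 2 neuronal markers rose.

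**Figure D5:**
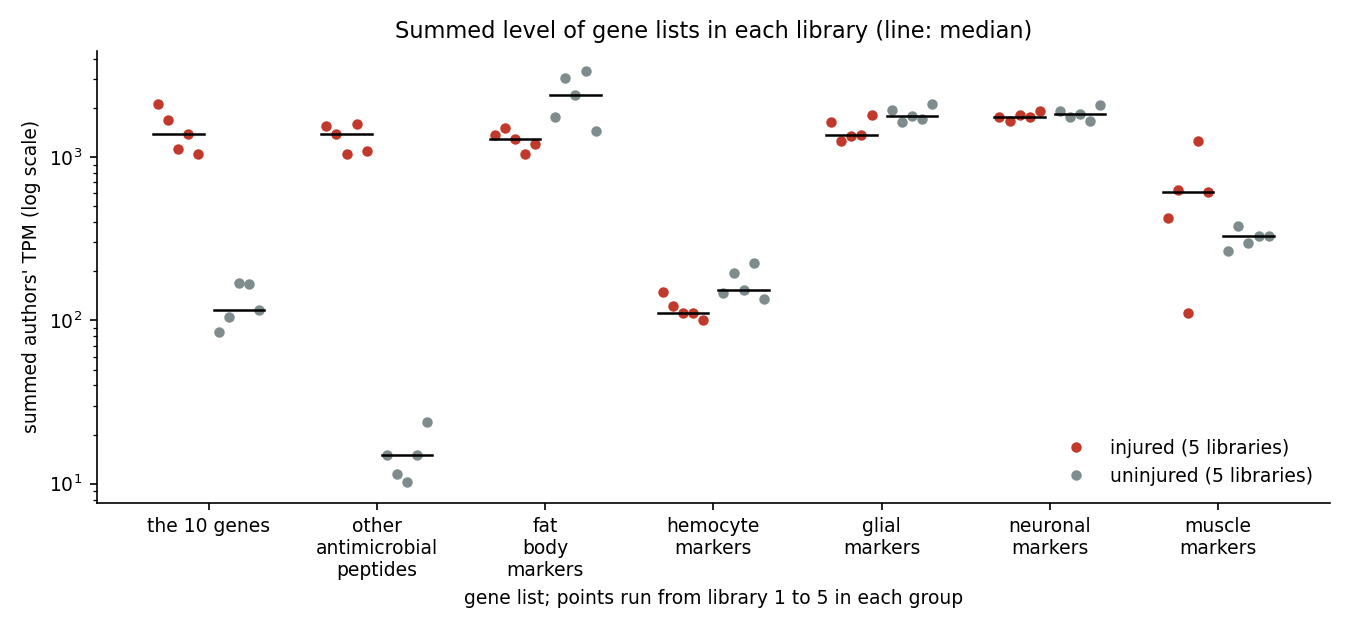
Summed TPM, as given by the authors, of the 10 genes, of the 11 other antimicrobial peptides and of 5 lists of cell type markers in every library, on a log axis, with injured libraries left of uninjured ones, points in library order from 1 to 5 and a line at the median. The sums of the peptide genes are separated between the groups (1039 to 2117 for the 10 genes after injury, 85.3 to 169 without injury), while those of the marker lists overlap.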

How the data were processed

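The members and gene lists were chosen with earlier results of these data known. RNA depleted of ribosomal RNA, without poly(A) selection, was sequenced as single reads. Using GeneSifter and its BWA aligner, the authors mapped the reads to the genome release that their methods state, and deposited estimated counts per gene, within 0.00063 of whole numbers and rounded here. What the authors deposited as TPM is computed like RPKM, from longest-transcript length and mapped reads. Authors' own fold changes, p-values (adjusted) and correlations were not used. Libraries are numbered by count column, and these numbers could not be matched to labelled replicates. Of 14352 genes, 1 with an unreadable value was dropped, and the 9365 whose mean TPM exceeded 2 in either group were tested with edgeR 4.0.16 (R 4.3.3), TMM factors, quasi-likelihood test and Benjamini-Hochberg adjustment over all tested genes. Genes below 2 TPM in 1 group, such as IM23, IM18, Hayan, pirk and Drsl5, passed this filter only through the other group. Shares of genes without overlap between groups rest on counts scaled to TMM-adjusted library totals (CPM). Pair ratios used counts + 0.5. p-values measure the spread between pools. Alternatives included DESeq2 1.42.0 and limma 3.58.1. Named genes are all 10, their relatives, the 2 largest called and, by mean CPM, the highest uncalled gene of each other list, and the 2 most alike profiles per gene. Genes outside this rule, such as GNBP3, spz, Tl, cact, dl, Dif, Rel, apolpp, Yp1, Yp2, Fbp1, Fbp2, the Lsp1 genes, Act88F, Mlc2 and Mhc, were chosen after their values were seen. List symbols matched 146 of 151. Coordinates are not given, because the annotation is of another build.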

Additional observations from a re-analysis of the deposited data

How the results depend on the processing

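All 10 genes stayed higher, on the called side, under the 22 alternatives run (other scalings, filters, DESeq2, limma-voom, limma on log2(TPM + 0.5) and log2(TPM + 1), counts of 1 set to 0, an adjusted p under 0.05, the column number as a block, each library left out, and IM10 summed with CG33470, the last chosen after the data were seen). DESeq2 size factors moved the median of all genes by 0.01 on the log2 scale and library totals alone by -0.01. With limma on log2(TPM + 0.5) or log2(TPM + 1) the median moved by -0.04. With the column number as a replicate block, which the labels do not tie to shared samples, 582 genes were higher and 584 lower, with 10 of the 10 genes higher. At an adjusted p under 0.05, 1060 genes were higher and 1140 lower.

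Counts of called list members moved in small numbers. For the Toll list, genes lower numbered 0 without the TPM filter, 2 with DESeq2 and 3 at an adjusted p under 0.05, and 0 to 1 with a library left out. For the Imd list, 1 was lower at an adjusted p under 0.05. For the other Bomanin, Daisho and Baramicin genes, 2 were lower with DESeq2, 1 with limma-voom, 1 with the replicate block and 2 at an adjusted p under 0.05, and 0 to 2 with a library left out. For fat body markers, 0 were higher with a mean TPM above 5 or limma-voom and 3 with the replicate block. Among them 1 was lower without the TPM filter and with limma on log2(TPM + 0.5) or log2(TPM + 1), 5 with the replicate block and 4 at an adjusted p under 0.05, and 1 to 2 with a library left out. For hemocyte markers 2 were lower with limma on log2(TPM + 1) and 2 to 4 with a library left out. For neuronal and muscle markers, 1 of each was higher at an adjusted p under 0.05, and 0 to 2 and 0 to 4 with a library left out. The cause was not tested in any of these cases. The relatives BomS6, BomBc3, BomT2 and BaraC changed their call under some alternatives, as given with their values. Pairs with a changed ratio numbered 25 to 33 with a library left out. Depth limits Def, IM14 and IM23, which had 3 to 14, 3 to 7 and 1 to 15 counts per uninjured library.
No paired analysis was possible beyond the column block because the labels give the groups no shared replicate numbers.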
